A study of Homo sapiens with 9 samples.

Results

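The contacts described here are those that 20 gene promoters made between 500 kb and 5 Mb away on their own chromosome. They were measured with Capture-C, in which crosslinked chromatin is cut with the restriction enzyme DpnII, ligated, and enriched for fragments joined to chosen promoter fragments, the viewpoints. The distance was counted from the annotated transcription start site, and the signal was summed in bins of 50 kb, 90 on each side of each promoter. This gave 3600 bins of 65476 that the whole chromosomes of the 20 viewpoints hold. A further 360 bins from 50 to 500 kb served for comparison.

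The cells were HCT-116, a human colon cancer line, in which MED14, the backbone subunit of the Mediator complex, carries a tag that the dTAG ligand uses to have the protein degraded. All 9 libraries come from these MED14-dTAG cells. There were 3 replicates treated with the solvent DMSO, 3 treated with 0.5 µM dTAG ligand for 2 h (dTAG), and 3 treated with the dTAG ligand for 2 h together with 1 µM of the BET inhibitor I-BET for 90 min (dTAG+I-BET). No library had the inhibitor alone, and the data used here contain no measurement of the MED14 protein. The study's methods call the replicates biological, and n = 3 rests on that statement. The deposited column names number the replicates with the letters TR, which neither the labels nor the methods explain.

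Mediator bridges enhancer-bound transcription factors and RNA polymerase II, and BET proteins read acetylated histones at enhancers and promoters. Contacts nearer to the promoter are shaped by cohesin loop extrusion and CTCF and contain most enhancer-promoter pairs. Contacts over megabases usually leave the domain of the promoter, become rarer with distance, and reflect the folding of the chromosome and the grouping of active or inactive chromatin.

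A library held 484419 to 857998 interactions within the viewpoints' chromosomes, of which 106582 to 187899 fell into the range from 500 kb to 5 Mb. The signal is the interaction number after the authors brought every viewpoint and library to a similar total on the viewpoint's own chromosome. It is given here per kb of genome. More signal in this range thus means less on the rest of that chromosome. A 50-kb bin had a median of 16 interactions in a library, so that single bins carried a large counting error. Averaged over the 20 promoters, the range held 20.7%, 21.2% and 25.5% of the cis interactions in the DMSO libraries. It held 21.8%, 21.6% and 28.2% in the dTAG libraries and 22.3%, 21.9% and 21.8% in the dTAG+I-BET libraries. DMSO replicate 3 and, more so, dTAG replicate 3 thus stood apart with more distant contacts, each the highest of its group at all 20 promoters, and results that rest on them are given with and without them.

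The sequences below show what a contact is in these data. Each is a DpnII fragment inside a long-range bin described below, chosen as the most often hit fragment of that bin that is 60 to 300 bases long and touches no exon. The build is hg38, the plus strand is printed, and the capitals mark the DpnII sites at which the fragment was cut.

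The IRS1 promoter met the first fragment, chr2:225668680-225668828 in an intron of NYAP2, from 1131 kb away with 116 interactions in the 9 libraries (46 in DMSO, 34 in dTAG, 36 in dTAG+I-BET):
IRS1 contact: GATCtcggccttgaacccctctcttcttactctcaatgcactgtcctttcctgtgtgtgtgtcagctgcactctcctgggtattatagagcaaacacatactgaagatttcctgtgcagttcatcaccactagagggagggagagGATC

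The HS3ST1 promoter met a fragment in an intron of CLNK, chr4:10589406-10589665, from 840 kb away with 136 interactions (44, 48 and 44 in the 3 groups):
HS3ST1 contact: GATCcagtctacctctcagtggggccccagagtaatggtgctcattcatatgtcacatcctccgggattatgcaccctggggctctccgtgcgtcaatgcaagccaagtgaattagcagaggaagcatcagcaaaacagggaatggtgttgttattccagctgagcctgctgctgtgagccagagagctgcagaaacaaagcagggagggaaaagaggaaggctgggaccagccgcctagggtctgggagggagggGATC

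The KRT19 promoter met a fragment between genes, chr17:40913795-40914042, from 614 kb away with 53 interactions (22, 18 and 13):
KRT19 contact: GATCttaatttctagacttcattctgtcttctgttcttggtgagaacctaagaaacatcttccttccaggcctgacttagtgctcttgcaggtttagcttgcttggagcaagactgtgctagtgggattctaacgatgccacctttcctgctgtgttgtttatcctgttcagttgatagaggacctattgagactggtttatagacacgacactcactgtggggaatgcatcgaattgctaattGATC

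The MTAP promoter met a fragment between interferon genes, chr9:21196808-21196965, from 606 kb away with 24 interactions (6, 14 and 4):
MTAP contact: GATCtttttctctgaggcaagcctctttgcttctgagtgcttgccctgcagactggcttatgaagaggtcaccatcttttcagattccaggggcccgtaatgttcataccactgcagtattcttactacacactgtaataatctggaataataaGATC

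Each of these 4 sequences occurs once in the chromosomes of hg38. Single fragments gathered few interactions, which is why the results are given per 50-kb bin or per longer stretch.

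In DMSO, the signal fell from a mean of 148 per kb in the bins from 500 to 550 kb (40 bins) to 51.1 at 1 Mb, 19.4 at 2 Mb and 5.77 per kb in the bins that end at 5 Mb. At the limits of the range the values ran on without a step, with 148 per kb from 450 to 500 kb and 5.87 per kb from 5000 to 5050 kb. On log2 scales of signal and distance, the mean slope over the 20 promoters was −1.46 ± 0.0595 (SD, n = 3 libraries) in DMSO. The steepest promoters were KRT19, which encodes a keratin of simple epithelia (−2.13 ± 0.0271), and MYC, the growth-promoting transcription factor (−1.97 ± 0.0963). The flattest was ANGPT2, a ligand of the receptor TIE2 (−0.499 ± 0.0692).

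**Figure D1:**
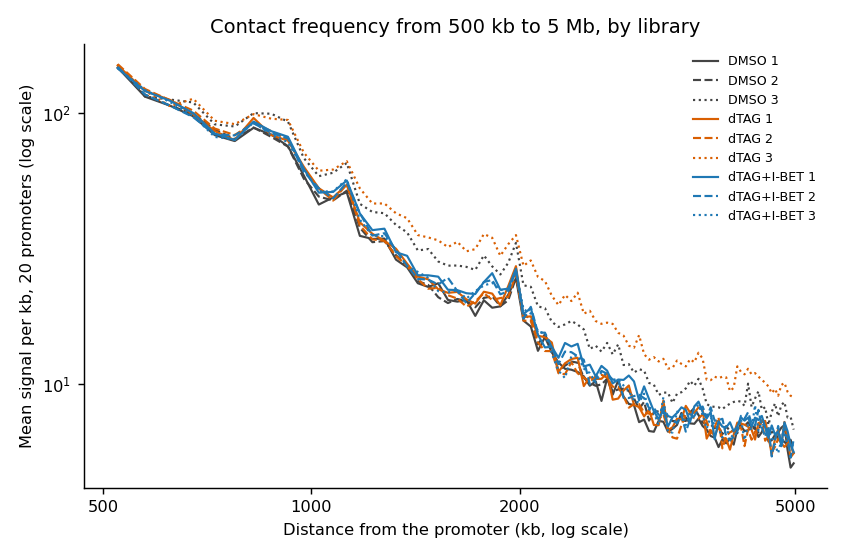
Mean signal per kb over 20 promoters and both sides (log scale) against the distance from the promoter in kb (log scale) in 50-kb bins, 1 line per library. All libraries start near 148 per kb, and the lines of dTAG replicate 3 and DMSO replicate 3 lie above the other 7 beyond 1 Mb.

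Promoters differed widely in how much of their contact they spent on this range. The highest share in DMSO was that of MYC, with 38.5%, 38.9% and 48.2% of its cis interactions in the 3 libraries (41.9% ± 5.51, SD, n = 3). The lowest of these is above the highest DMSO value of the next promoter, HS3ST1, a heparan sulfate sulfotransferase (32.7% ± 2.72, highest 35.8%). After HS3ST1 came KRT19 with 31.8% ± 2.65, KRR1, which acts in ribosome assembly, with 31.6% ± 3.24, and IRS1, the adaptor of the insulin receptor, with 31.2% ± 2.46. These neighbours did not differ beyond their spread. The lowest shares were those of ANGPT2 (12.6% ± 1.46) and MTAP, an enzyme of methionine salvage (12.6% ± 2.89). Between them lay TRIB1, a pseudokinase gene on the chromosome of MYC (18.7% ± 3.37), and HMGA2, an architectural chromatin protein (15.8% ± 1.11). By role, the 7 genes of growth factor and receptor signaling had DMSO shares from 12.6% to 31.2% (median 18.7%). The 4 genes of the epithelial cytoskeleton or the cell surface, KRT19, KRT80, PCDH7 and DCBLD2, had 14.7% to 31.8% (median 26.7%). The median over all 20 was 19.7%.

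**Figure D2:**
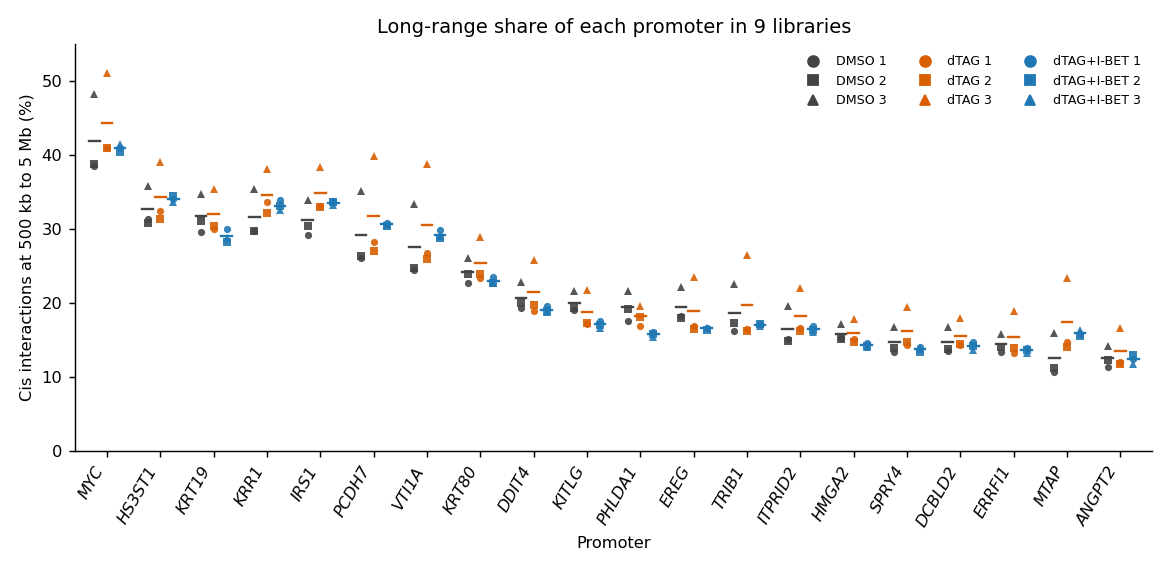
Share of cis interactions from 500 kb to 5 Mb (%) for each promoter, ordered by the DMSO mean. Each point is 1 library (shape gives the replicate, colour the group) and each short line a group mean. DMSO replicate 3 and dTAG replicate 3 lie highest in their groups at all 20 promoters, and MYC stands above the other 19 in DMSO.

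Some promoters reached certain distant stretches more often than other promoters did at the same distance. For each bin, the DMSO signal was divided by the mean of all 40 bins at the same distance, the bin itself included; these ratios describe the data and were not tested. The highest ratio of a promoter ran from 1.83 at DDIT4 to 16.0 at MYC, and the 8 promoters with the highest are described.

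The leading bin belonged to MYC and lay 1950 to 2000 kb downstream, chr8:129685435-129735434, where the annotation has no protein-coding gene. It held 399, 365 and 554 signal per kb in DMSO, 458, 409 and 512 in dTAG, and 447, 432 and 439 in dTAG+I-BET, so that the 3 groups overlapped. Its ratio was 16.0 in DMSO, 15.7 in dTAG and 16.7 in dTAG+I-BET. The bins just before and after it had ratios of 9.93 and 5.08, and the bin holds 1 site from which the study lists a loss of cohesin. TRIB1, which lies 2.3 Mb farther from it, had its own highest ratio in nearly the same place, chr8:129680359-129730358, at 4250 to 4300 kb. The CCDC26 long non-coding RNA gene reaches only into the start of this TRIB1 bin, before the MYC bin begins. TRIB1 held 24.3, 24.04 and 63.3 per kb there in DMSO, a ratio of 4.67. DMSO replicate 3 was far above the others, whose own ratios were 3.62 and 3.34, and dTAG replicate 3 likewise had 72.6 per kb beside 23.1 and 25.1.

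IRS1 had its highest ratio (7.02) 1100 to 1150 kb downstream over NYAP2, chr2:225649820-225699819, which holds the first fragment printed above. The values were 385, 337 and 455 per kb in DMSO, 402, 383 and 407 in dTAG, and 418, 386 and 411 in dTAG+I-BET. KRT19 peaked 600 to 650 kb downstream over the keratin genes KRT20 and KRT23, chr17:40878308-40928307, with 762, 690 and 700 per kb in DMSO (ratio 6.63). HS3ST1 reached CLNK, which encodes an immune adaptor, chr4:10579564-10629563, with 475, 437 and 599 per kb (ratio 5.47), and KRR1 reached OSBPL8, a lipid transfer protein gene, chr12:76461637-76511636, with 312, 288 and 323 per kb (ratio 5.01). The remaining pair was thinner in interactions. ANGPT2 reached CLN8 near the outer limit of the range with 29.4, 36.3 and 56.1 per kb (ratio 5.68), and SPRY4, an inhibitor of receptor tyrosine kinase signaling, reached GRXCR2 and SH3RF2 at 3600 kb with 31.6, 43.4 and 49.2 per kb (ratio 4.88). None of the 8 bins passed the test in any comparison of treatments, with adjusted p-values from 0.606 to 0.996 (limma).

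No single fragment made these peaks: the most often hit fragment held 2.01% to 4.19% of a peak's DMSO interactions. Several were parts of broader stretches. The bins just before and after had ratios of 4.33 and 4.65 at KRR1, 4.26 and 5.52 at KRT19, and 4.31 and 4.68 at ANGPT2. They had 3.51 and 4.01 at HS3ST1, 4.17 and 1.79 at IRS1, 2.50 and 2.90 at SPRY4, and 2.65 and 1.60 at TRIB1. At KRR1 the bin just before held more signal (351 per kb) than the named one (307). The ratio does not take out a promoter's own long-range level. Viewpoints on other chromosomes met the 8 regions at 16.2 to 51.2 per 1000000 of their interactions between chromosomes, beside a median of 16.9 over all long-range bins.

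Viewpoints on 1 chromosome allowed a contact to be measured from both ends. The bin with the MYC promoter, seen from TRIB1 at 2300 kb, held 18.2, 26.2 and 36.7 per kb in DMSO (ratio 2.05), and the bin with the TRIB1 promoter, seen from MYC, 14.3, 16.3 and 18.5 per kb (ratio 1.24). KRR1 and PHLDA1, each in a bin from 500 to 550 kb of the other, met more often. PHLDA1 saw the bin with KRR1 at 580, 605 and 560 per kb, its highest ratio (3.92), and KRR1 saw the bin with PHLDA1 at 303, 300 and 289 per kb (ratio 2.01). Since the signal is scaled per viewpoint, the 2 directions need not be equal.

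Over all 3600 bins, the ratio to the same-distance mean had a median of 0.827. It was 0.675 in the 1489 bins without a protein-coding gene, 0.903 in the 1916 bins with 1 or 2, and 1.09 in the 195 bins with 3 or more. In the 55 bins that hold a site from which the study lists a loss of cohesin after Mediator depletion, the median was 1.86, beside 0.817 in the other 3545. Across bins, which share libraries and are no replicates, the ratio had a Spearman correlation of 0.241 with the number of DpnII sites, 0.221 with GC content, 0.193 with the number of protein-coding genes and 0.344 with the signal from viewpoints on other chromosomes (n = 3600 bins). Bins with more cut sites and bins met more by other chromosomes thus had higher ratios. The part of these properties in the ratios was not tested.

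The first question for the treatments was whether losing Mediator, with or without BET inhibition, moves contact into or out of the long range as a whole. Averaged over the 20 promoters, the log2 signal was 4.54 ± 0.156 in DMSO, 4.61 ± 0.216 in dTAG and 4.51 ± 0.0190 in dTAG+I-BET (SD, n = 3 libraries). The differences were 0.073 for dTAG against DMSO (two-sided exact permutation test, p = 0.5), −0.034 for dTAG+I-BET against DMSO (p = 1) and −0.107 for dTAG+I-BET against dTAG (p = 0.9). With 3 libraries a group the smallest p this test allows is 0.1. Leaving out DMSO replicate 3 and dTAG replicate 3 turned the middle one of these differences to 0.056 (p = 0.1) and the last to 0.0173 (exact permutation p = 0.4). The slope with distance was −1.42 ± 0.135 in dTAG and −1.46 ± 0.00757 in dTAG+I-BET, beside −1.46 ± 0.0595 in DMSO (exact permutation p = 0.9 and p = 1). All comparisons with DMSO use the same 3 DMSO libraries. The dTAG+I-BET libraries lay closer together than those of the other groups, while the main limma fits used 1 spread for the groups together. Higher counts of calls or of separate groups in dTAG+I-BET, here and below, thus do not by themselves show a stronger effect. The part of the unequal spread in these counts was not tested.

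For single promoters, the test over the 20 totals (limma, Benjamini-Hochberg adjusted) called 0 in each of the 3 comparisons, which is 0% of 20, as did edgeR. At an unadjusted p under 0.05, limma passed 1, 2 and 0. The largest change was that of MTAP. It spent 10.7%, 11.2% and 15.9% of its cis interactions on the long range in DMSO, 14.8%, 14.1% and 23.4% in dTAG, and 15.9%, 15.6% and 16.3% in dTAG+I-BET. Only DMSO replicate 3 reached the other groups. The log2 difference in signal was 0.42 for dTAG (SE in the fit 0.153, adjusted p = 0.201) and 0.34 for dTAG+I-BET (adjusted p = 0.349). PHLDA1, a pleckstrin-domain gene that growth factors induce, had the lowest value for dTAG+I-BET (−0.28, adjusted p = 0.349), and its DMSO and dTAG+I-BET libraries did not overlap. Such separation held for 4 of the 20 promoters in that comparison (EREG, HMGA2, KITLG and PHLDA1, 20% of 20), for 4 in dTAG+I-BET against dTAG (20%) and for 0 of 20 in dTAG against DMSO. For the named oncogene loci, the log2 differences of dTAG and of dTAG+I-BET against DMSO were 0.07 and −0.02 at MYC, 0.05 and −0.11 at TRIB1, and 5.82e-05 and −0.14 at HMGA2.

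The counts were higher without the 2 libraries with the flatter decay. With both left out, which leaves 2 DMSO, 2 dTAG and 3 dTAG+I-BET libraries, limma called 9 promoters in dTAG against DMSO (2 lower, 7 higher), 13 in dTAG+I-BET against DMSO (4 lower, 9 higher) and 5 in dTAG+I-BET against dTAG (1 lower, 4 higher). MTAP had 0.36 and 0.50 in the 2 comparisons with DMSO, IRS1 0.14 and 0.17, KRR1 0.14 and 0.16, KITLG −0.15 and −0.16, and PHLDA1 −0.06 and −0.20. The choice to leave these 2 libraries out was made after their decay had been seen. Leaving out the most deviant libraries lowers the spread within groups, so the higher counts, here and below, cannot show that more changed.

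At the level of single bins, 3515 of the 3600 passed the filter on low signal and 85 did not. Among all 3875 bins tested from 50 kb on, 0.335% were called in dTAG against DMSO and 0.516% in dTAG+I-BET against DMSO (limma, adjusted p under 0.05), and 0% in dTAG+I-BET against dTAG. Of these calls, 2 of 13 and 5 of 20 were long-range bins. At an unadjusted p under 0.05, 155 long-range bins passed for dTAG and 237 for dTAG+I-BET against DMSO, and edgeR on the interactions called 0 and 2 long-range bins in the 2 comparisons. In dTAG+I-BET against dTAG, limma called 0 with 157 at an unadjusted p under 0.05, and edgeR called 0. From 50 to 500 kb, 11 and 15 of 360 bins were called. Groups without overlap occurred in 291 of the 3515 tested long-range bins (8.28%, beside 9.55% of all 3875) for dTAG and in 488 (13.9%, beside 16.2%) for dTAG+I-BET, against DMSO, and in 344 (9.79%, beside 10.1%) between the treatments.

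Both bins that rose in dTAG belonged to MTAP and lie side by side upstream, over the cluster of type I interferon genes. The nearer, chr9:21202636-21252635 at 550 to 600 kb with IFNA10, IFNA14, IFNA16 and IFNA17, held 225, 243 and 277 per kb in DMSO, 401, 348 and 486 in dTAG, and 395, 379 and 508 in dTAG+I-BET. The farther, chr9:21152636-21202635 at 600 to 650 kb with IFNA4, IFNA7 and IFNA21, held 137, 139 and 144 per kb in DMSO, 240, 230 and 249 in dTAG, and 250, 234 and 237 in dTAG+I-BET. In both bins every treated library was above every DMSO library. The log2 increases for dTAG were 0.72 ± 0.143 (SE, adjusted p = 0.0336) and 0.77 ± 0.111 (adjusted p = 0.00289), and for dTAG+I-BET 0.78 in both (adjusted p = 0.0162 and 0.00243).

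The interferon alpha genes are near copies of each other, so reads inside them are uncertain. Of the signal in the nearer bin, the 84 fragments outside interferon genes gave 191 ± 15.9 per kb in DMSO, 313 ± 65.9 in dTAG and 327 ± 68.1 in dTAG+I-BET (SD, n = 3). In the farther bin, 79 such fragments gave 110 ± 3.49, 182 ± 7.08 and 197 ± 24.7 per kb. Pseudogenes were left out of the gene list, so any interferon pseudogene in these bins counted as outside. These fragments can therefore still include uncertain reads. Viewpoints on other chromosomes met the 2 bins at 17.0 and 14.9 per 1000000 of their interactions between chromosomes, near the median of 16.9. With the long-range total of each promoter set equal between libraries, the log2 differences for dTAG were 0.28 and 0.33 and neither bin was called (adjusted p = 0.944 for both), and edgeR called neither (adjusted p = 0.395 and 0.227). For dTAG+I-BET, equal totals also ended both calls (adjusted p = 0.603 and 0.654), while edgeR kept that of the farther bin (adjusted p = 0.0466). In all, the call of the nearer bin was kept in 12 of 20 alternatives for dTAG and 13 for dTAG+I-BET, and that of the farther in 17 and 19.

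Of the other 3 bins called in dTAG+I-BET, all lower than in DMSO, the best covered was that of KRT19. At 550 to 600 kb downstream, chr17:40928308-40978307 with KRT23, KRT39 and KRT40, it held 487, 491 and 498 per kb in DMSO, 420, 386 and 424 in dTAG, and 339, 336 and 338 in dTAG+I-BET. The 3 groups were separate from each other. The log2 difference was −0.54 ± 0.0967 for dTAG+I-BET (adjusted p = 0.0145) and −0.26 for dTAG (adjusted p = 0.73). The call was kept in 13 of 20 alternatives. Leaving out DMSO replicate 1 or 2, or any 1 dTAG+I-BET library, ended it (adjusted p = 0.0913 to 0.106), with log2 differences of −0.54 to −0.55. This bin lies next to the KRT19 peak over KRT20 and holds 2 of the listed cohesin sites. DDIT4, an inhibitor of mTORC1, had a bin at 750 to 800 kb downstream over P4HA1, a collagen prolyl hydroxylase gene, chr10:73023920-73073919. It held 117, 99.0 and 104 per kb in DMSO, 89.0, 95.6 and 104 in dTAG, and 65.0, 66.8 and 67.1 in dTAG+I-BET, a log2 difference of −0.68 ± 0.141 (adjusted p = 0.041), which was kept in 10 of 20 alternatives.

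The last was a distant upstream MTAP bin, chr9:17002636-17052635, with 6, 7 and 8 interactions in DMSO, 5, 5 and 4 in dTAG, and 1, 0 and 0 in dTAG+I-BET. The ratio of dTAG+I-BET to DMSO per cis interaction was 0.0568 (95% exact conditional interval 0.00137 to 0.353, counting error only). This interval uses the same counts by which the bin was called, so it is no separate evidence. Each of these 3 lower bins lost its call in edgeR (adjusted p from 0.186 to 0.406), and the KRT19 and DDIT4 bins also when the long-range totals were set equal (adjusted p = 0.541 and 0.284). Their log2 differences were then −0.51 and −0.65 in edgeR and −0.42 and −0.57 with equal totals, so that the direction stayed. The distant MTAP bin kept its call in 14 of 19 alternatives.

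**Figure D3:**
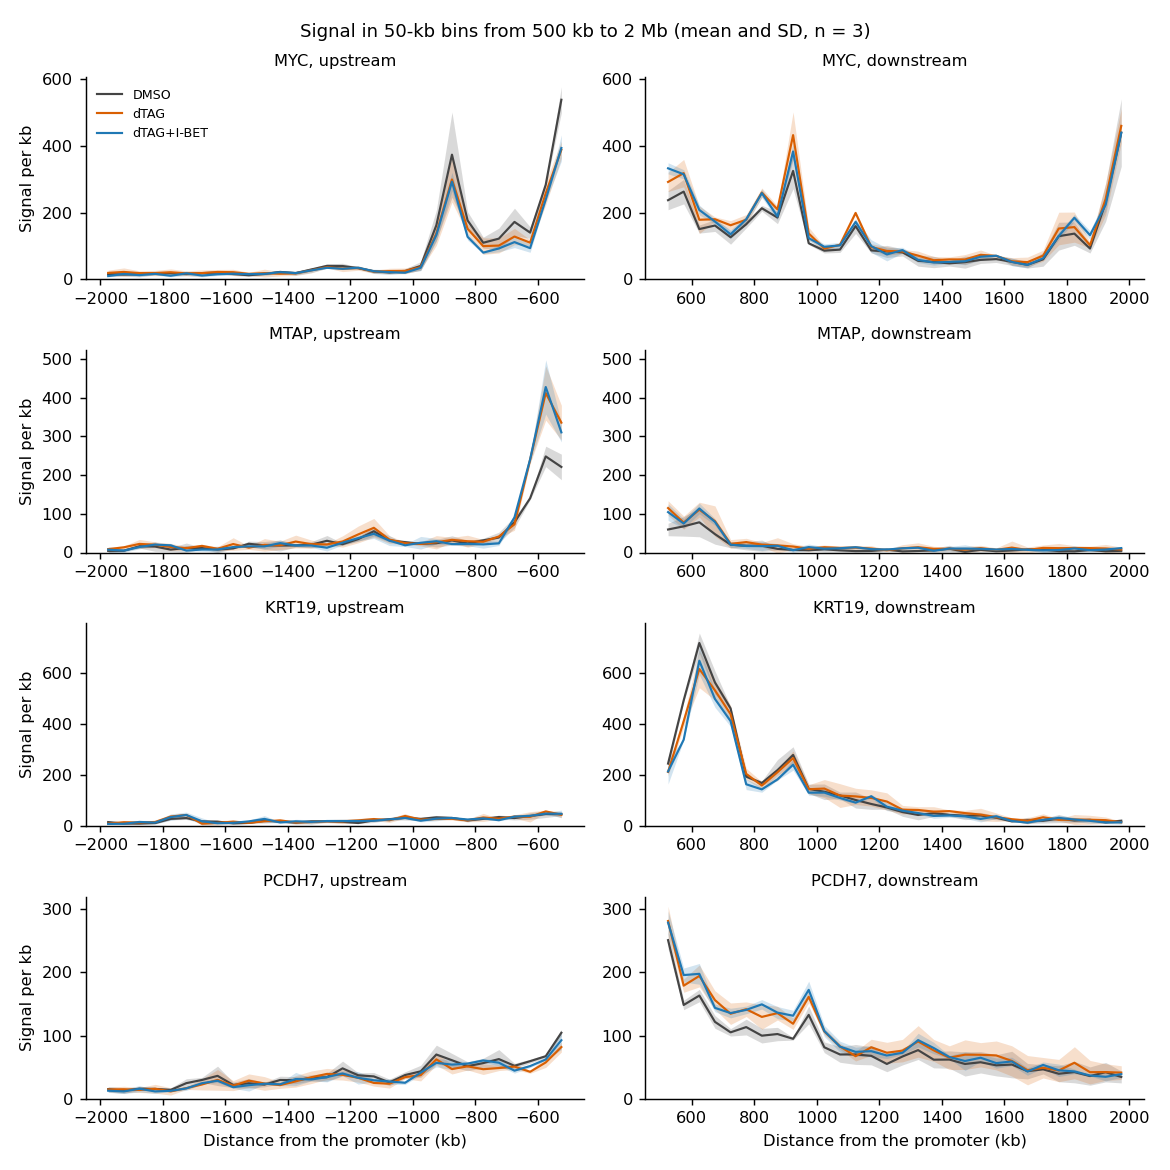
Signal per kb in 50-kb bins against the distance from the promoter in kb (upstream negative), from 500 kb to 2 Mb, for 4 promoters. Lines are group means and bands the SD (n = 3). The treated groups lie above DMSO at the MTAP peak near 600 kb upstream and from 500 kb to 1 Mb downstream of PCDH7, and below it at KRT19 from 550 to 600 kb downstream.

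Contacts were not even on the 2 sides of a promoter. In DMSO, the log2 ratio of upstream over downstream signal from 500 kb to 5 Mb ran from −2.14 at IRS1 and −2.08 at KRT19 to 1.32 at MTAP. This ratio compares 2 sides within a library, so that it does not contain the library's total. It was tested after the planned tests on bins and totals had been seen, as was the split by side and distance below. That makes 4 families of tests in 3 comparisons each.

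The ratio changed at 4 of 20 promoters in dTAG against DMSO (20%), at 5 of 20 in dTAG+I-BET against DMSO (25%) and at 0 of 20 in dTAG+I-BET against dTAG (limma, adjusted p under 0.05). In the last comparison 1 promoter had an unadjusted p under 0.05. Groups did not overlap at 7 (35%), 10 (50%) and 4 (20%) promoters. At MYC the ratio was −0.67, −0.58 and −0.46 in DMSO, −1.04, −0.998 and −0.74 in dTAG, and −1.002, −1.02 and −0.97 in dTAG+I-BET. All treated libraries were thus shifted to the downstream side, by −0.36 ± 0.0871 (SE, adjusted p = 0.0197) and −0.43 (adjusted p = 0.0059). The MYC calls were kept in 11 and 15 of 16 alternatives. The dTAG call was lost without DMSO replicate 2, dTAG replicate 1 or dTAG replicate 2. It was also lost when only the 2 groups compared entered the fit (limma, adjusted p = 0.0945). PCDH7, which encodes a protocadherin, moved the same way from −0.55, −0.63 and −0.72 to −1.06, −0.96 and −0.95 in dTAG and −0.87, −0.90 and −0.93 in dTAG+I-BET. Its differences were −0.36 ± 0.0601 (adjusted p = 0.0045) and −0.27 (adjusted p = 0.00822).

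The other 2 promoters called in dTAG belong to growth factor signaling. KITLG, the ligand of the receptor KIT, had 1.16, 1.06 and 1.00 in DMSO, 0.87, 0.81 and 0.88 in dTAG, and 0.86, 0.84 and 0.86 in dTAG+I-BET (differences of −0.22 with adjusted p = 0.0197, kept in 10 of 16 alternatives, and −0.22 with adjusted p = 0.0134, kept in 14). The first call ended on leaving out replicate 1 or 2 of DMSO, or replicate 1 or 2 of dTAG. It also ended with only the 2 groups compared in the fit (limma, adjusted p = 0.0945). SPRY4 had 0.05, 0.09 and −0.09 in DMSO, −0.14, −0.19 and −0.27 in dTAG, and −0.28, −0.33 and −0.37 in dTAG+I-BET (−0.21, adjusted p = 0.045, kept in 5 of 16 alternatives, and −0.34, adjusted p = 0.0059, kept in all 16). VTI1A, a SNARE of vesicle transport, was the only called promoter that moved upstream, from −0.40, −0.43 and −0.50 in DMSO to −0.16, −0.18 and −0.14 in dTAG+I-BET (0.28, adjusted p = 0.0059). In dTAG it had −0.31, −0.36 and −0.21, which lie between the other 2 groups and did not pass the test (0.15, adjusted p = 0.102).

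From 1 to 5 Mb alone, 0 of 20 promoters were called in dTAG against DMSO, and the dTAG difference was −0.07 at MYC (adjusted p = 0.681), −0.26 at PCDH7 (adjusted p = 0.133), −0.21 at KITLG and −0.23 at SPRY4 (adjusted p = 0.0556 for both). In dTAG+I-BET against DMSO 5 of 20 were called from 1 to 5 Mb, among them KITLG (−0.26, adjusted p = 0.0131), SPRY4 (−0.42, adjusted p = 0.000666) and VTI1A (0.34, adjusted p = 0.00155), while MYC and PCDH7 had −0.17 each (adjusted p = 0.277 and 0.275). Without DMSO replicate 3 and dTAG replicate 3, 10, 18 and 8 promoters were called in the 3 comparisons.

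**Figure D4:**
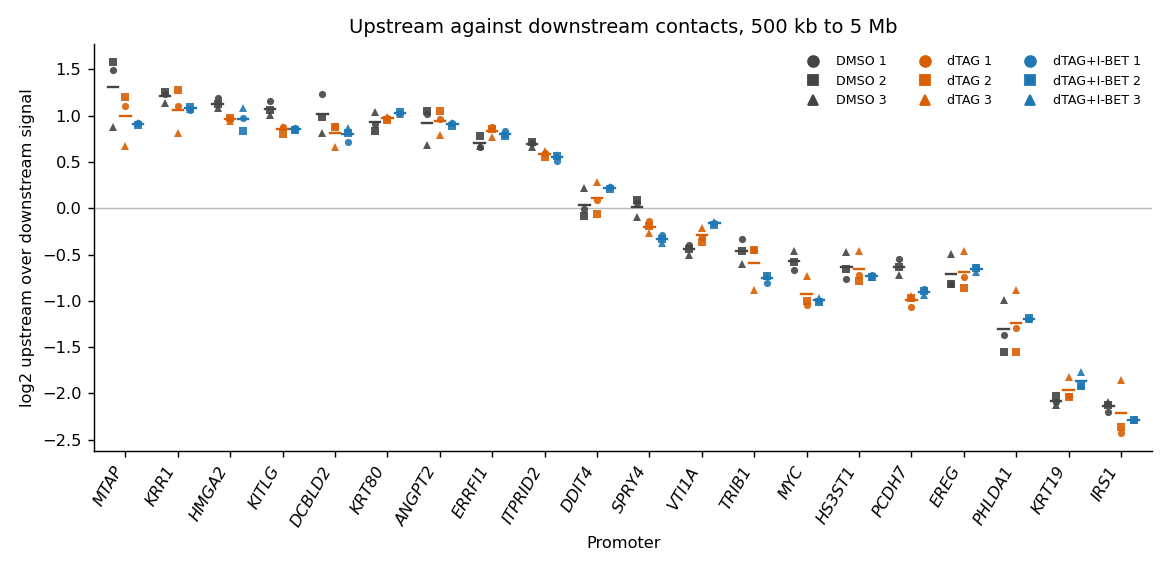
Log2 ratio of upstream over downstream signal from 500 kb to 5 Mb for each promoter, ordered by the DMSO mean. Points are libraries (shape gives the replicate, colour the group) and short lines group means. All treated libraries of MYC, PCDH7 and KITLG lie below their DMSO libraries, and those of VTI1A above.

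To place these shifts, each side was split at 1 and 2 Mb, giving 120 stretches. In dTAG against DMSO 3 of 120 were called (2.5%), in dTAG+I-BET against DMSO 8 of 120 (6.67%) and in dTAG+I-BET against dTAG 0 (0%; limma for all, with 3 at an unadjusted p under 0.05 in the last, where edgeR also called 0). Groups did not overlap in 9 (7.5%), 40 (33.3%) and 18 (15%) of them. As the dTAG+I-BET libraries lay closer together than the others, these shares do not compare the sizes of effects. All called stretches lay between 500 kb and 1 Mb.

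MYC was called on both sides. Downstream, chr8:128235435-128735434 holds no protein-coding gene but LINC00824 and part of CCDC26. Its signal was 195, 195 and 191 per kb in DMSO, 232, 243 and 229 in dTAG, and 232, 229 and 228 in dTAG+I-BET. The log2 increases were 0.28 ± 0.0437 (SE, adjusted p = 0.00432) and 0.25 (adjusted p = 0.00724), and each of its 10 bins was higher in both treated groups, though none was called on its own. Upstream, chr8:126735434-127235433 holds the non-coding genes PCAT1, CASC19 and PRNCR1. The signal there was 194, 192 and 250 per kb in DMSO, 158, 163 and 192 in dTAG, and 158, 155 and 166 in dTAG+I-BET. The log2 difference was −0.39 in dTAG+I-BET (adjusted p = 0.0289) and −0.30 in dTAG (adjusted p = 0.191). All 10 bins were lower in both treated groups, and the stretch holds 5 of the listed cohesin sites.

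On the signaling and growth side, 2 more stretches fell in dTAG+I-BET, both upstream. That of KITLG, chr12:89080852-89580851, contains DUSP6, a phosphatase that inactivates ERK, with POC1B and GALNT4. It held 116, 111 and 111 per kb in DMSO, 99.6, 95.1 and 101 in dTAG, and 98.7, 90.6 and 91.4 in dTAG+I-BET (log2 difference of −0.27, adjusted p = 0.0289). That of HMGA2, chr12:64824460-65324459, contains the Wnt inhibitor WIF1, LEMD3 and MSRB3. It held 130, 120 and 128 per kb in DMSO, 109, 102 and 108 in dTAG, and 101, 95.9 and 106 in dTAG+I-BET (−0.31, adjusted p = 0.0144). In dTAG alone the differences were −0.19 (adjusted p = 0.222) and −0.24 (adjusted p = 0.107), with no overlap between groups. IRS1 rose downstream in dTAG+I-BET, in a stretch without protein-coding genes, chr2:225799820-226299819, from 266, 272 and 290 to 314, 314 and 313 per kb (0.19, adjusted p = 0.0289), with 319, 321 and 296 in dTAG (0.18, adjusted p = 0.0667). This stretch holds 6 of the listed cohesin sites. The dTAG+I-BET calls of the IRS1 and KITLG stretches were kept in 9 of 17 alternatives each and ended without DMSO replicate 1, DMSO replicate 2 or any 1 dTAG+I-BET library. Those of the HMGA2 and upstream MYC stretches were kept in 11 of 17. The first ended without DMSO replicate 1 or dTAG+I-BET replicate 1 or 2, and the other without any 1 dTAG+I-BET library.

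Of the genes of the epithelial cytoskeleton or the cell surface, PCDH7 rose and KRT19 fell. PCDH7 downstream, chr4:31220370-31720369 without protein-coding genes, held 126, 140 and 133 per kb in DMSO, 171, 167 and 151 in dTAG, and 164, 167 and 173 in dTAG+I-BET (0.29, adjusted p = 0.0311, and 0.33, adjusted p = 0.00724). The dTAG call of PCDH7 was kept in 7 of 17 alternatives. KRT19 downstream, chr17:40528308-41028307 with 19 protein-coding genes, most of them keratins, held 343, 339 and 360 per kb in DMSO and 309, 291 and 288 in dTAG+I-BET (−0.23, adjusted p = 0.00724). The dTAG libraries had 322, 322 and 311 per kb, between the other groups (−0.13, adjusted p = 0.191).

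The upstream stretch of MTAP, chr9:20802636-21302635, which contains the interferon genes, FOCAD and HACD4, rose from 80.0, 84.6 and 92.8 per kb to 118, 110 and 143 in dTAG and 122, 117 and 125 in dTAG+I-BET (0.52, adjusted p = 0.00854, and 0.49, adjusted p = 0.00724). Of its 10 bins, 7 were higher in dTAG and 5 in dTAG+I-BET, and the 2 called bins described above lie in it.

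The calls for stretches depended on how libraries were scaled. When each promoter's signal from 10 to 500 kb was set equal between libraries, 0 stretches were called in either comparison with DMSO, but the log2 differences kept their directions. For dTAG they were then 0.40 at MYC downstream, 0.41 at PCDH7 and 0.46 at MTAP (adjusted p from 0.521 to 0.622). For dTAG+I-BET they were larger than before at HMGA2 (−0.40), KITLG (−0.41), KRT19 (−0.31), IRS1 (0.23) and PCDH7 (0.35), about as before at MYC downstream (0.24) and upstream (−0.40), and smaller at MTAP (0.31), with adjusted p from 0.636 to 0.823. When the signal was taken as a share of all interactions, including those with other chromosomes, 2 and 3 were called, and edgeR called 1 and 0. dTAG replicate 3 had 36.7% of its cis interactions from 10 to 500 kb on average, beside 43.6% to 48.1% in the other 8 libraries. The part of this in the lost calls was not tested. With it and DMSO replicate 3 left out under the scaling used here, 37, 54 and 21 stretches were called in the 3 comparisons.

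**Figure D5:**
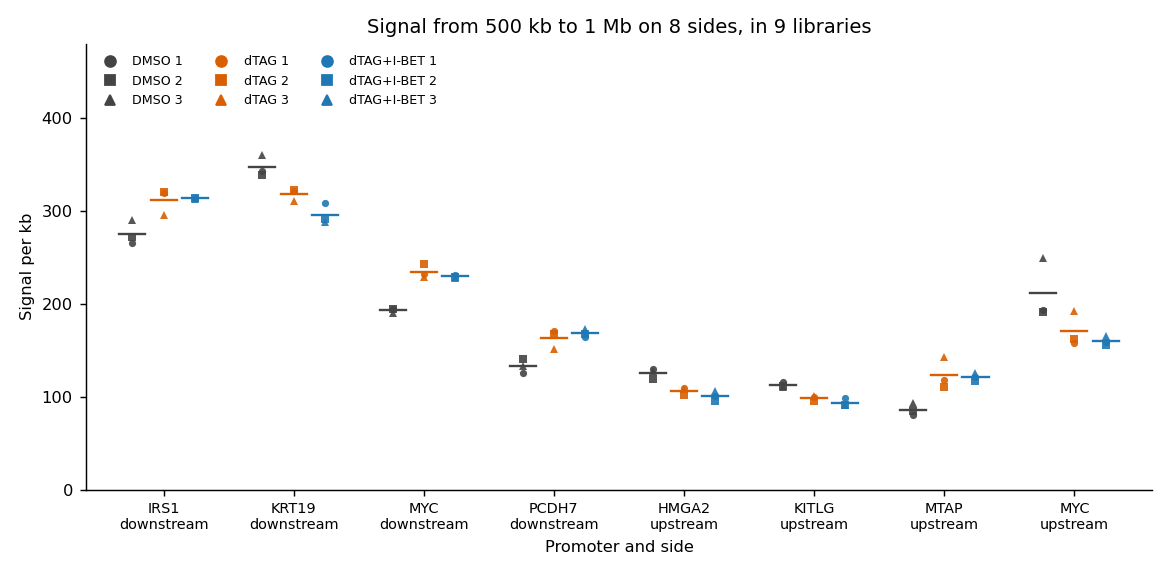
Signal per kb from 500 kb to 1 Mb on the 8 sides called in at least 1 comparison. Points are libraries (shape gives the replicate, colour the group) and short lines group means. Treated libraries lie above DMSO on 4 sides (IRS1, MYC and PCDH7 downstream, MTAP upstream) and below it on KRT19 downstream, HMGA2 and KITLG upstream, while on MYC upstream dTAG replicate 3 reaches the DMSO range.

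The inhibitor's addition was compared directly in dTAG+I-BET against dTAG. No bin, promoter total, side ratio or stretch was called by limma there with all 9 libraries. For the 8 stretches above, the log2 differences ran from −0.10 at KRT19 downstream to 0.04 at PCDH7 downstream, with standard errors from 0.0419 to 0.0995. For the bin of KRT19 over KRT23, the difference was −0.28 ± 0.0967 and for that of DDIT4 −0.53 ± 0.141 (adjusted p = 0.988 for both). Over all 3515 tested long-range bins the median log2 difference was −0.12, and 34.6% of bins were higher in dTAG+I-BET, beside 61.1% higher in dTAG against DMSO with a median of 0.10. The 2 comparisons share the dTAG libraries, of which replicate 3 had the most distant contacts.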

How the data were processed

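All 9 Capture-C libraries were used. Per the methods and the submitters' processing notes, the authors used CapCruncher (version 1, hg38) and bcl2fastq 2.17. Each deposited signal value counts the interactions at 1 DpnII fragment, brought by the authors to a like cis total per viewpoint and library. All values were whole multiples of the smallest value in their column (100%, tolerance 0.01), which gave the interactions behind them.

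Start sites came from GENCODE v44 on hg38. Fragments were placed by their midpoint. The 50-kb bins from 50 kb to 5 Mb with a mean signal of at least 2 per kb (3875, of which 3515 lie beyond 500 kb) were fitted in R 4.3.3 by limma 3.58.1 with a variance trend on log2 of signal per kb plus 1. All 9 libraries entered the fit, and p-values were adjusted over all bins by Benjamini-Hochberg. Promoter totals and side ratios used limma without the trend. A fold on this scale understates changes of low signal. Means over promoters were compared with two-sided exact permutation tests in Python 3.11.15. edgeR 4.0.16 on the recovered interactions was an alternative. Named promoters were MYC, TRIB1, HMGA2, MTAP, those called, those with the highest or lowest level or change, and those with the most called bins. Named bins were all called ones where at most 5, the 8 highest ratios in DMSO with 1 per promoter, and the bins that join KRR1 with PHLDA1 and MYC with TRIB1. Other promoters were named after their values were seen. The bins, gene groups and tests were chosen with earlier results of these data known. The limma and edgeR fits of 50-kb bins were tested on simulated data. The simulation drew bins independently with a fixed dispersion, without the differences in decay or spread between libraries. It therefore cannot show how the calls behave under those differences. Of the study's own comparisons, only its list of sites with changed cohesin after Mediator depletion was used. It gave the positions and the direction of the change, and sites with a loss were counted.

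Of the 9 same-numbered pairs of libraries, 1 deviated together over bins (DMSO replicate 3 with dTAG replicate 3, r = 0.216), and the other 8 had correlations of −0.0259 to 0.0708. The numbers were therefore not treated as pairs.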

Additional observations from a re-analysis of the deposited data

How the results depend on the processing

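Long-range 50-kb bins called against DMSO numbered 2 for dTAG and 5 for dTAG+I-BET. For dTAG they numbered 4 with a filter of 10 per kb, 0 with equal long-range totals (also without dTAG replicate 3 or in edgeR), 0 with only the 2 groups, 0 in edgeR, 11 with array weights, and 21 without DMSO replicate 3 and dTAG replicate 3. For dTAG+I-BET they numbered 8 in 25-kb bins, 2 in 100-kb bins, 2 with equal long-range totals (3 without dTAG replicate 3, 0 in edgeR), 10 with only the 2 groups, 41 with array weights, 2 in edgeR and 79 without both libraries. Leaving out 1 library gave 1 to 9 and 1 to 19. Without DMSO replicate 3 they numbered 9 and 12, and without dTAG replicate 3 they numbered 4 and 19. Without DMSO replicate 1 or 2, or without dTAG+I-BET replicate 2, they numbered 1 and 1. Without dTAG replicate 1 or dTAG+I-BET replicate 1 there was 1 for dTAG, and without dTAG+I-BET replicate 1 or 3 there were 2 and 1 for dTAG+I-BET. dTAG+I-BET against dTAG had 0 throughout the alternatives run on bins.

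Promoter totals had 0 calls in all 3 comparisons. Array weights gave 6, 11 and 4, only the 2 groups gave 1 for dTAG+I-BET against DMSO, and leaving out both libraries gave 9, 13 and 5. Leaving out 1 library gave 0 to 1, 0 to 2 and 0. Side ratios, called at 4 and 5 promoters against DMSO and 0 between treatments, gave 0 for dTAG from 1 to 5 Mb, 1 with only the 2 groups, and 10, 18 and 8 without both libraries. Leaving out 1 library gave 1 to 5 (2 without DMSO replicate 1, and 1 each without DMSO replicate 2, dTAG replicate 1 or dTAG replicate 2), 4 to 11 (11 without DMSO replicate 3, 9 without dTAG replicate 3) and 0. The SPRY4 call in dTAG was kept in 5 of 16 alternatives. The calls of SPRY4 and VTI1A in dTAG+I-BET were kept in all 16.

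Stretches, called 3 and 8 times against DMSO and 0 between treatments, gave 0 and 0 with equal totals from 10 to 500 kb (with differences of the same direction, such as 0.40 beside 0.28 at MYC downstream and −0.41 beside −0.27 at KITLG), 3 for dTAG+I-BET as a share of all interactions, 1 and 0 in edgeR, and 37, 54 and 21 without both libraries. Leaving out 1 library gave 2 to 7 (7 without DMSO replicate 3), 4 to 15 (15 without that library) and 0. The mean log2 difference of dTAG+I-BET against DMSO was −0.21 with the median over promoters, and its slope difference 0.0435. Leaving out 1 library gave mean differences of −0.05 to 0.16, −0.09 to 0.06 and −0.17 to 0.02 and slope differences of −0.04 to 0.08, −0.03 to 0.03 and −0.08 to 0.04 in the 3 comparisons. The cause of these changes was not tested.

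With the replicate block, 4 and 15 bins, 1 and 1 promoter totals, 8 side ratios for dTAG+I-BET and 9 and 17 stretches were called against DMSO. The block gave 0 between treatments for bins, totals, ratios and stretches. Among same-numbered libraries only DMSO replicate 3 and dTAG replicate 3 deviated together (r = 0.216). The side ratio and stretch tests, the joint removal of both libraries, and equal totals combined with edgeR or without dTAG replicate 3 were chosen after seeing the data. No alternative turned the direction of a call that was named. A bin's median of 16 interactions per library limits single-bin differences, whose median standard error was 0.38 in log2.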
